A study of Mus musculus with 12 samples.

Results

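Glucose transporters and the genes that move them to the cell surface were examined as a set of 9 genes, which were Slc2a1, Slc2a3, Slc2a4, Slc2a6, Slc2a8, Tbc1d1, Tbc1d4, Rab10 and Lnpep. They were found in the count table by gene symbol, and all 9 of them were present among its 15113 genes and passed the filter on low counts that left 12730 genes for testing. The set was named with earlier results of these data known, but no measured value entered the rule that chose it. RNA came from C2C12 cells, a mouse myoblast line that fuses into multinucleated myotubes once serum is lowered, and the cultures were fully differentiated myotubes when treated. A total of 6 libraries came from cells exposed to 20 μM BAM15, a mitochondrial uncoupler that carries protons across the inner membrane without making ATP, dissolved in DMSO for 16 h, and 6 came from cells given the vehicle for the same time. Both groups carried no genetic change that the labels mention, and all cells belong to 1 cell line. The labels do not say whether the 6 libraries of a group came from separate cultures, so the p-values measure the spread between these libraries, which may be technical.

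Glucose enters muscle cells through facilitative transporters of the SLC2 family, proteins that let the sugar run down its gradient without using energy. GLUT1, the product of Slc2a1, sits in the plasma membrane at rest, whereas GLUT4, the product of Slc2a4, is held inside the cell in storage vesicles together with the aminopeptidase IRAP, the product of Lnpep. Insulin, acting through AKT, and low cellular energy, acting through AMPK, lead to phosphorylation of the Rab GTPase-activating proteins TBC1D1 and AS160 (the product of Tbc1d4), which relieves their brake on Rab proteins such as RAB10 and lets the vesicles reach the surface. C2C12 myotubes are known for a low content of GLUT4 beside that of adult muscle. All of these steps act on proteins, and only transcript abundance was measured here.

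Libraries were made with QuantSeq, which primes at the poly(A) tail, so that a transcript gives about 1 read near its 3′ end whatever its length. CPM values (counts scaled to a common library size with TMM factors) can therefore be set side by side between genes, although priming may differ from gene to gene. Library totals lay between 13983725 counts (BAM15 6) and 18866728 counts (vehicle 1). Below, a normalized count is a count divided by the TMM-scaled library size and multiplied by the mean of those sizes, and differences are log2 fold changes of BAM15 minus vehicle from the quasi-likelihood test of edgeR, whose p-values were adjusted by Benjamini-Hochberg over all 12730 tested genes. A gene was called when its adjusted p was below 0.01, and a stricter rule of 3 thresholds also asked for a change beyond 2-fold and for a mean above 50 normalized counts. Libraries of a group carry the numbers 1 to 6, and BAM15 libraries 4 to 6 stood apart from BAM15 libraries 1 to 3 across many genes in an earlier analysis of these counts, so the values of the SLC2 genes and the 9 genes of the set are also given within numbers 1 to 3 and within numbers 4 to 6.

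Promoter sequences are shown for Slc2a1, the most abundant transporter, and for Tbc1d1, the member with the smallest adjusted p. They come from RefSeq on GRCm38.p6 and run from 250 bases before to 50 bases after the annotated start. Of the 9 genes, 7 had an entry, and Slc2a3 and Slc2a4 did not. Capitals mark TATAAA (the TATA box), GGGCGG (the GC box), ACGTG (the core of hypoxia-inducible factor sites) and CANNTG (the E-box read by myogenic factors), each searched on both strands.
Slc2a1, chr4:119108495-119108794, plus strand: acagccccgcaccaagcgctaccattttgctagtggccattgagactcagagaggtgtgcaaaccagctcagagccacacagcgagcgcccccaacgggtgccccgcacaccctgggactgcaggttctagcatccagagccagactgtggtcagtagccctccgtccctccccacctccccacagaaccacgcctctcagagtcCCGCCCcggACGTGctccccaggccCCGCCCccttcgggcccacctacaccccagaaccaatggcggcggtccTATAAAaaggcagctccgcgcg
Tbc1d1, upstream start, chr5:64160010-64160309, plus strand: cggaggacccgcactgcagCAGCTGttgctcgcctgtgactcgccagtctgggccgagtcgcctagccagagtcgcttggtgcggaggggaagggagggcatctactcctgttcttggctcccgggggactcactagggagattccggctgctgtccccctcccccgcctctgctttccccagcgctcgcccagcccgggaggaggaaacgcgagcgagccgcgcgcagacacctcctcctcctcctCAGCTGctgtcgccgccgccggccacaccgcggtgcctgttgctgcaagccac
Tbc1d1, downstream start, chr5:64230107-64230406, plus strand: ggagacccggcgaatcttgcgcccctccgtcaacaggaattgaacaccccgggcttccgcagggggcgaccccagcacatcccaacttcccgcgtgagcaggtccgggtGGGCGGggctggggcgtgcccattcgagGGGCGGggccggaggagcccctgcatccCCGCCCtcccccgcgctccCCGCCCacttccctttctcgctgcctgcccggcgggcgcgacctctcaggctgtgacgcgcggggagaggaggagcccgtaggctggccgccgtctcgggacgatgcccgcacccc

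The Slc2a1 window held 1 TATA box that began 28 bases downstream of the annotated start. It also held 2 GC boxes and 1 ACGTG that lay between these GC boxes without overlapping them. No E-box was found in it. The upstream window of Tbc1d1 held 2 E-boxes, both with the letters CAGCTG, and the downstream window held 4 GC boxes. Across the 32851 promoter windows of the same length, TATAAA was present in 13.6%, GGGCGG in 35.7%, ACGTG in 19.6% and CANNTG in 72.3%. No binding was measured in these samples, and the letters are given as a description of the windows.

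Of the 9 genes, 2 were called after BAM15, with Slc2a4 higher and Tbc1d1 lower. This is 22.2% of the set, against 42.3% of all tested genes called in either direction, 22% called higher and 20.3% called lower. By edgeR, 0 of the 9 passed the 3 thresholds, which 7.28% of all genes did, and the number was also 0 with DESeq2 or limma-voom and with an unadjusted p below 0.05 in place of the adjusted one, since Slc2a4 alone changed by more than 2-fold. Every BAM15 library lay on 1 side of every vehicle library for 3 of the 9 genes, Slc2a4 above and Slc2a6 and Tbc1d1 below, against 34.2% of all genes. The median log2 fold change was 0.08 over the 9 genes and 0.02 over all tested genes. Shares at or below those of the whole table are no result about the set, and the values are therefore given gene by gene.

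**Figure D1:**
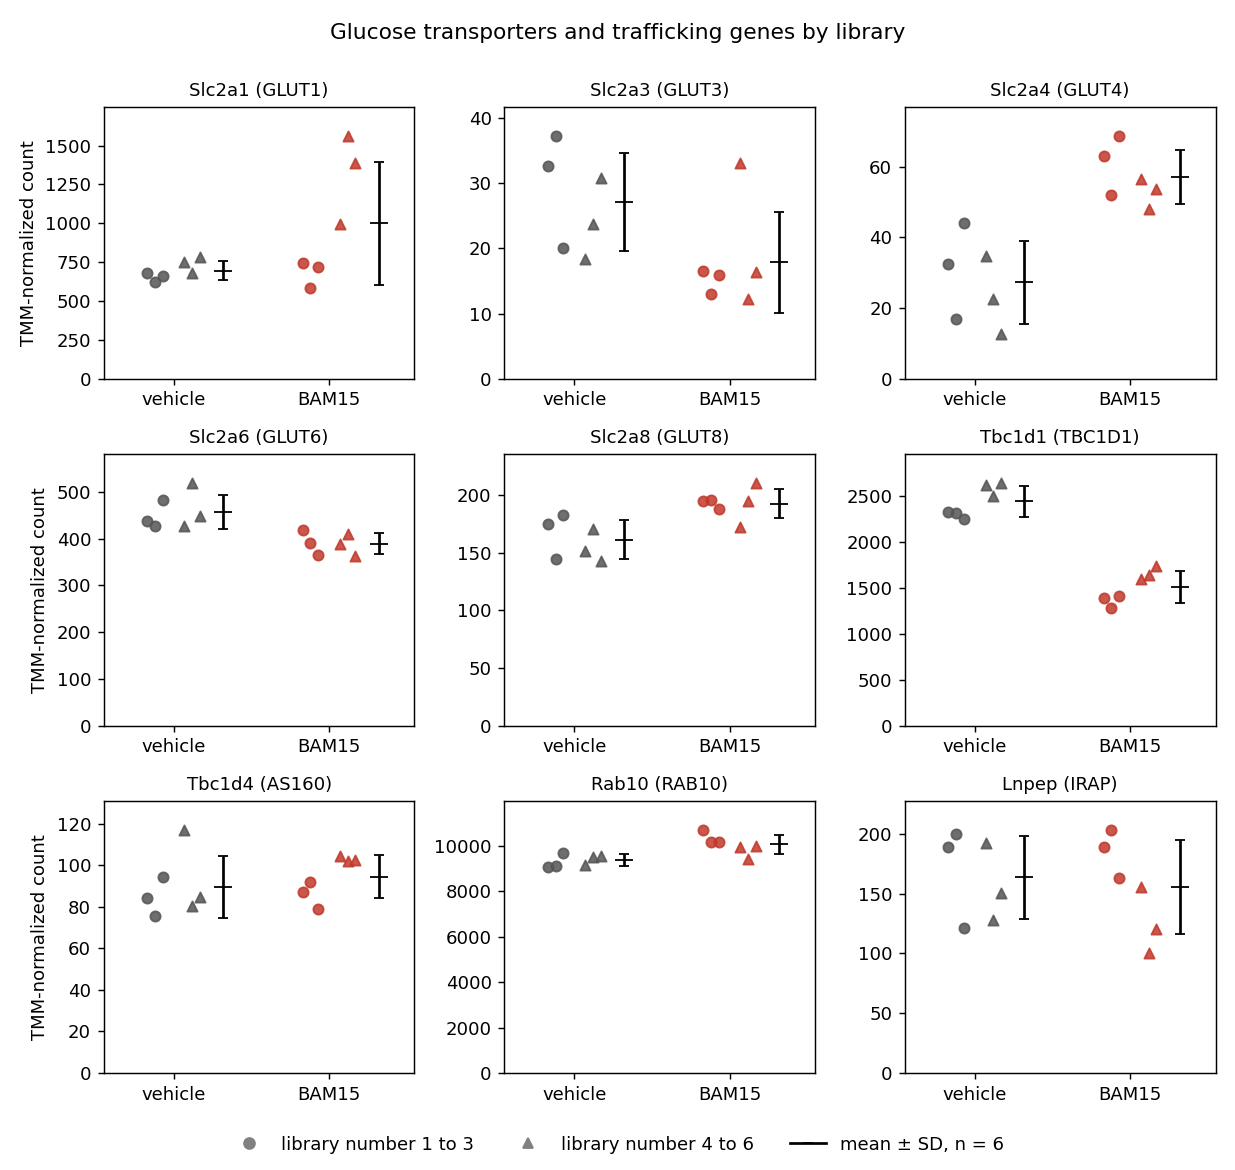
Normalized count (y axis, linear from 0) of each of the 9 genes in every vehicle (grey) and BAM15 (red) library, with circles for library numbers 1 to 3, triangles for numbers 4 to 6, and the mean ± SD of the 6 libraries beside them. Slc2a4 rose without overlap from 27.3 to 57.0, Tbc1d1 fell from 2437 to 1508, and the BAM15 triangles of Slc2a1 stand above all other points of that gene.

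Slc2a4 encodes GLUT4, the insulin-responsive transporter of muscle and fat (chromosome 11, 69942539 to 69948188, minus strand, GRCm38). Its normalized counts in vehicle libraries 1 to 6 were 32.6, 17.0, 44.0, 34.6, 22.7 and 12.7. In BAM15 libraries 1 to 6 they were 63.1, 51.9, 68.6, 56.6, 47.9 and 53.7. The lowest BAM15 library was above the highest vehicle library, so the groups did not overlap. The mean rose from 27.3 ± 11.8 to 57.0 ± 7.66 (SD, n = 6 each), a log2 fold change of 1.06 (SE 0.24, adjusted p = 1.70e-03 by edgeR). As a ratio the change was 2.09-fold, with a 95% confidence interval of 1.46 to 2.98. The gene missed the 3 thresholds because its mean over the 12 libraries was 42.1 normalized counts.

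The depth behind these values is small, at 14 to 46 reads per vehicle library and 46 to 73 reads per BAM15 library. Counting error alone would give an SD of 5.22 normalized counts among the vehicle libraries, and the measured SD was 11.8. The log2 fold change was 0.95 among numbers 1 to 3 (adjusted p = 4.77e-03 by edgeR) and 1.18 among numbers 4 to 6 (adjusted p = 7.02e-03 by edgeR). Slc2a4 was therefore called in each set of libraries on its own.

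Slc2a1 encodes GLUT1, the transporter of basal glucose uptake (chromosome 4, 119108711 to 119137983, plus strand). Vehicle libraries 1 to 6 held 678, 619, 659, 753, 681 and 781 normalized counts. BAM15 libraries 1 to 3 held 745, 581 and 721, whereas BAM15 libraries 4 to 6 held 999, 1561 and 1391. BAM15 libraries 1 to 3 thus fell within or close to the vehicle range, and each of BAM15 libraries 4 to 6 exceeded every vehicle library. Over all libraries the mean was 695 ± 60.5 with vehicle and 999.7 ± 397 with BAM15, a log2 fold change of 0.52 (SE 0.22, 95% interval 0.05 to 0.99) with an adjusted p of 0.0573 by edgeR, so the gene was not called.

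Treated as separate experiments, the number sets gave different values for Slc2a1. Within numbers 1 to 3 the log2 fold change was 0.06 (SE 0.09, adjusted p = 0.572 by edgeR). Within numbers 4 to 6 it was 0.83 (SE 0.15, adjusted p = 1.07e-03 by edgeR), and the gene was called. The difference between these effects was 0.77 on the log2 scale (SE 0.19), with an unadjusted p of 1.31e-03 and an adjusted p of 0.0490 in the interaction test of edgeR, which is not below 0.01. Over 7 other ways of fitting the interaction the adjusted p lay between 6.09e-03 and 0.0548, and DESeq2's Wald test gave the value below 0.01. The interaction test of edgeR called 0% of the 12730 genes at 0.01, while 3313 genes had an unadjusted p below 0.05 and DESeq2 called 319. The split by number was chosen with earlier results of these counts known. Its p-values are therefore no independent test. No label says what separates the number sets.

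Slc2a3 encodes GLUT3, a transporter with a high affinity for glucose that is best known from neurons (chromosome 6, 122727809 to 122801640, minus strand). It was among the least abundant of the set, at 18.4 to 37.2 normalized counts in vehicle libraries (median 27.2) and 12.2 to 33.1 in BAM15 libraries (median 16.2). BAM15 library 4 held 33.1, above 5 of the 6 vehicle values, and the other BAM15 libraries held at most 16.5, below every vehicle library. Its log2 fold change was −0.61 (SE 0.26, adjusted p = 0.0627 by edgeR), and without BAM15 library 4 it was −0.87 (adjusted p = 5.52e-03 by edgeR), so that this 1 library decided the call. Within numbers 1 to 3 it was −0.97 (adjusted p = 0.0131 by edgeR) and within numbers 4 to 6 −0.27 (adjusted p = 0.582 by edgeR), with an interaction that was not called (adjusted p = 0.401 by edgeR).

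Slc2a6 encodes GLUT6, a transporter of intracellular membranes (chromosome 2, 27021363 to 27027998, minus strand). Vehicle libraries ranged from 427 to 519 normalized counts (median 443) and BAM15 libraries from 363 to 419 (median 389.9). All 6 BAM15 libraries lay below all 6 vehicle libraries, but by a small step. Its log2 fold change was −0.23 (SE 0.07, 95% interval −0.38 to −0.08), and the adjusted p of 0.0105 by edgeR fell just outside the threshold of 0.01. The value was −0.20 within numbers 1 to 3 and −0.27 within numbers 4 to 6. It was called under 7 of 24 alternatives, with adjusted p-values between 2.88e-03 and 0.0629 over all of them. The libraries whose omission brought it below 0.01 were BAM15 1, BAM15 5 and vehicle 2, where the adjusted p was as low as 9.81e-03 by edgeR.

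Slc2a8 encodes GLUT8, which is likewise kept on internal membranes (chromosome 2, 32972990 to 32982083, minus strand). It ranged from 143 to 183 normalized counts with vehicle (median 161) and from 172 to 210 with BAM15 (median 195), so that every BAM15 value was above the vehicle mean while the groups overlapped. This gave a log2 fold change of 0.26 (SE 0.09, 95% interval 0.07 to 0.44, adjusted p = 0.0204 by edgeR), and the gene was not called. Its value was 0.20 within numbers 1 to 3 and 0.30 within numbers 4 to 6.

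Tbc1d1 encodes TBC1D1, the GTPase-activating protein that links AMPK and AKT to GLUT4 vesicles in muscle (chromosome 5, 64156305 to 64351486, plus strand). In vehicle libraries 1 to 6 it stood at 2322, 2310, 2249, 2612, 2497 and 2634 normalized counts. In BAM15 libraries 1 to 6 it stood at 1389, 1279, 1412, 1594, 1634.5 and 1740. The highest BAM15 library was far below the lowest vehicle library. In both groups each library numbered 4 to 6 was above each numbered 1 to 3, by a step smaller than the one between the groups. The mean fell from 2437 ± 166 to 1508 ± 175 (SD, n = 6 each), a log2 fold change of −0.69 (SE 0.08, adjusted p = 2.07e-06 by edgeR) or a decrease of the fitted level to 0.619 of vehicle (95% interval 0.553 to 0.693).

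With the number set as a block, which takes out the step shared by both groups, the log2 fold change of Tbc1d1 was −0.70 and its SE dropped from 0.08 to 0.05. It was −0.76 within numbers 1 to 3 and −0.65 within numbers 4 to 6, and the interaction was not called (adjusted p = 0.443 by edgeR). The gene was called in every one of 24 alternatives, with adjusted p-values between 4.76e-15 and 1.47e-05. Its change stayed short of 2-fold.

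Tbc1d4 encodes AS160, the paralog of TBC1D1 through which insulin acts on GLUT4 vesicles in fat and muscle (chromosome 14, 101442360 to 101609191, minus strand). It ranged from 75.5 to 117 normalized counts with vehicle (median 84.7) and from 79.0 to 105 with BAM15 (median 97.1). The groups overlapped over nearly their whole range. The log2 fold change was 0.08 (SE 0.12, adjusted p = 0.604 by edgeR), with a 95% interval of −0.18 to 0.34 that holds neither a change of the size seen in Tbc1d1 nor one of the size seen in Slc2a4. Within numbers 1 to 3 and 4 to 6 it was 0.01 and 0.13.

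Taken within each library, Tbc1d1 and Tbc1d4 can be set against each other free of any scaling between libraries. With vehicle there were 22.3 to 31.1 counts of Tbc1d1 per count of Tbc1d4 (median 29.0). With BAM15 there were 13.9 to 17.9 (median 15.9), without overlap between the groups. Slc2a4 against Slc2a1 behaved differently. There were 1.62 to 6.67 counts of Slc2a4 per 100 counts of Slc2a1 with vehicle, 8.47 to 9.52 in BAM15 libraries 1 to 3 and 3.07 to 5.67 in BAM15 libraries 4 to 6, so the last 3 lay inside the vehicle range.

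**Figure D2:**
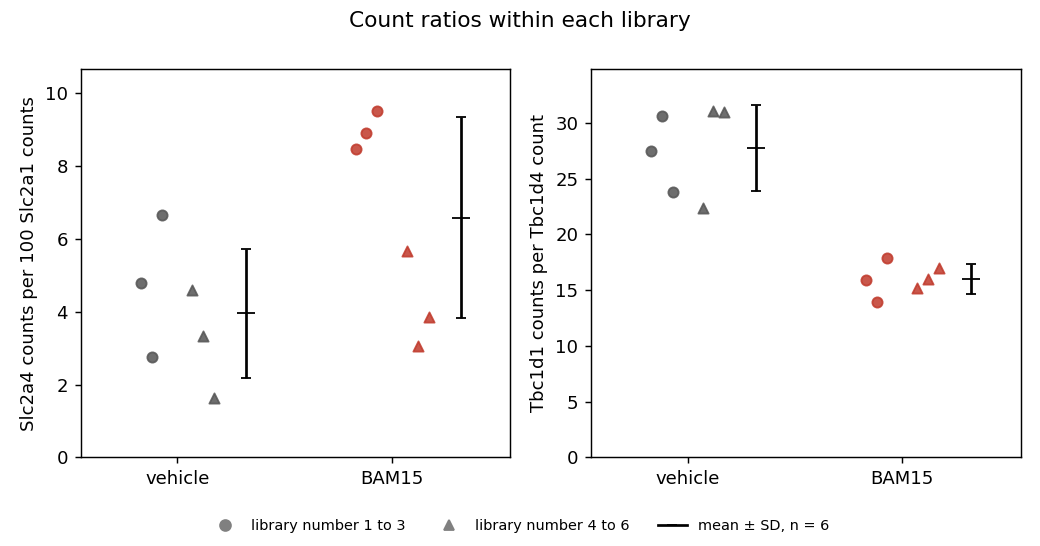
Ratio of raw counts within each library, Slc2a4 per 100 Slc2a1 on the left and Tbc1d1 per Tbc1d4 on the right (y axes linear from 0), for vehicle (grey) and BAM15 (red) libraries numbered 1 to 3 (circles) and 4 to 6 (triangles), with the mean ± SD. On the right every BAM15 library lies below every vehicle library, and on the left only the BAM15 circles, at 8.47 to 9.52, lie above the vehicle range.

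Rab10 encodes RAB10, the small GTPase that AS160 restrains in adipocytes (chromosome 12, 3247428 to 3309969, minus strand). It was by far the most abundant of the 9 genes, at 9096 to 9709 normalized counts with vehicle (median 9355) and 9408 to 10693 with BAM15 (median 10093). All BAM15 values were above the vehicle mean, yet the groups overlapped. The log2 fold change was 0.11 (SE 0.05, 95% interval 0.01 to 0.20, adjusted p = 0.0696 by edgeR), and it was 0.15 within numbers 1 to 3 and 0.04 within numbers 4 to 6. The antisense gene Rab10os overlaps 11 of the 400 bases at the 3′ end of the transcript, and the strand used for counting is not given in the sources used here.

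Lnpep encodes IRAP, the insulin-regulated aminopeptidase that shares vesicles with GLUT4 (chromosome 17, 17521410 to 17625050, minus strand). It ranged from 121 to 199.97 normalized counts with vehicle (median 170.1) and from 100.5 to 203 with BAM15 (median 159.8). Both groups spread over almost the same range. The log2 fold change was −0.07 (SE 0.18, 95% interval −0.45 to 0.31, adjusted p = 0.750 by edgeR). It was 0.12 within numbers 1 to 3 and −0.34 within numbers 4 to 6, neither of which was called, and the interaction was not called either (adjusted p = 0.336 by edgeR).

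Seen by number set, 2 of the 9 genes were called within numbers 1 to 3 (Slc2a4 and Tbc1d1), where 44.4% of tested genes were, and 3 were called within numbers 4 to 6 (Slc2a1, Slc2a4 and Tbc1d1), where 33.2% of tested genes were. Slc2a4 and Tbc1d1 were shared between these comparisons, which use different libraries. Both comparisons are parts of the 12 libraries behind the main calls, so they are no independent repeat of them. The interaction test called 0 of the 9 genes at 0.01 by edgeR, and 1 of them, Slc2a1, had an unadjusted p below 0.05.

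**Figure D3:**
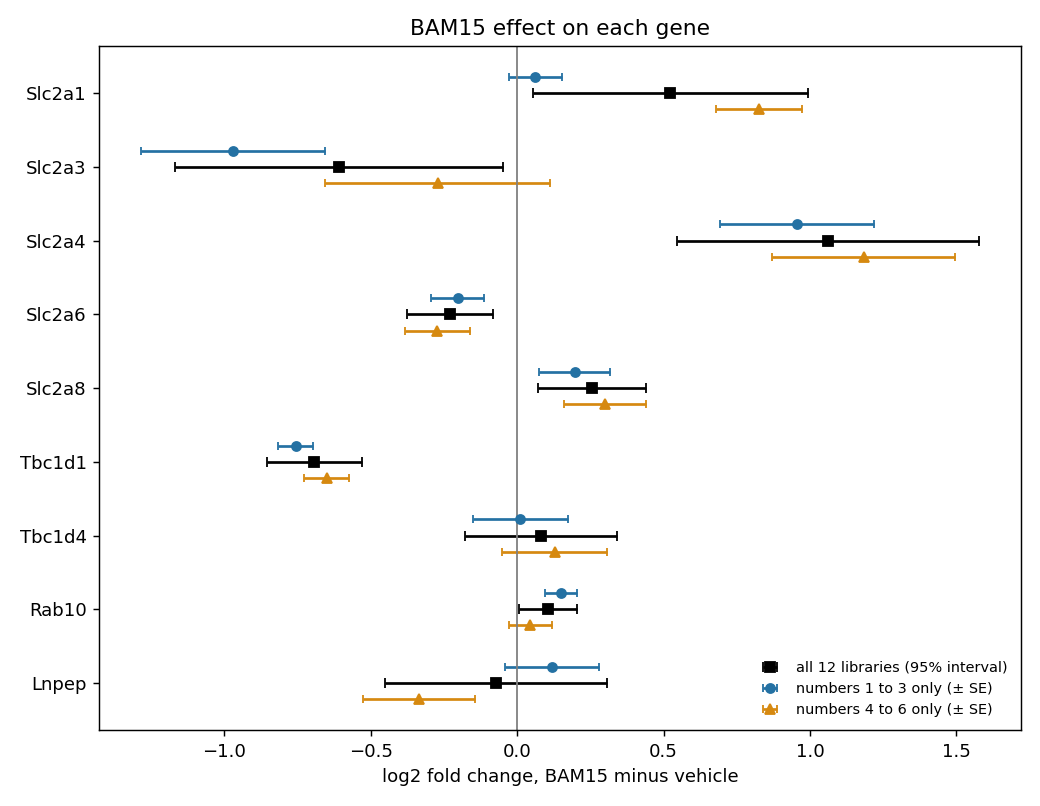
Log2 fold change of BAM15 minus vehicle (x axis) for each of the 9 genes, over all 12 libraries with its 95% interval (black squares), within numbers 1 to 3 (blue circles, ± SE) and within numbers 4 to 6 (orange triangles, ± SE). The 3 estimates lie close together for Slc2a4 and Tbc1d1, whereas those of Slc2a1 run from 0.06 to 0.83.

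On the CPM scale the order of levels with vehicle began with Rab10 (554 ± 15.8), Tbc1d1 (144 ± 9.82), Slc2a1 (41.1 ± 3.58) and Slc2a6 (27.0 ± 2.17), each clear of the next in every library. Lnpep (9.68 ± 2.06) and Slc2a8 (9.53 ± 1.00) overlapped each other and stood above Tbc1d4 (5.29 ± 0.88). Slc2a4 (1.61 ± 0.700) and Slc2a3 (1.60 ± 0.444) closed the order and overlapped. With BAM15 the range of Tbc1d1 (89.2 ± 10.3) reached into that of Slc2a1 (59.1 ± 23.5), Slc2a8 (11.4 ± 0.735) and Lnpep (9.19 ± 2.33) still overlapped, and Slc2a4 (3.37 ± 0.453) stood above Slc2a3 (1.06 ± 0.455) in every library. All levels are CPM, mean ± SD of 6 libraries.

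The table holds 3 further genes of the SLC2 family. Slc2a9 encodes GLUT9, which mainly carries urate (chromosome 5, 38349273 to 38503143, minus strand), and it showed the largest log2 fold change of the family. It had 2.13 to 9.74 normalized counts in vehicle libraries (median 7.01) and 38.4 to 64.2 in BAM15 libraries (median 50.1), from 2 to 9 reads and 36 to 59 reads. Every BAM15 library exceeded every vehicle library several times over. The log2 fold change was 2.88 (SE 0.25, adjusted p = 1.63e-07 by edgeR), or 7.34-fold with a 95% interval of 5.06 to 10.6, and its mean of 28.4 normalized counts kept it from the 3 thresholds. Within numbers 1 to 3 the log2 value was 3.10, and among numbers 4 to 6 it was 2.68, both called.

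Slc2a13 encodes HMIT, a proton-coupled myo-inositol transporter (chromosome 15, 91267696 to 91573261, minus strand). It rose from 10.4 ± 3.65 to 23.8 ± 12.4 normalized counts, with BAM15 library 5 the highest at 46.9 and an overlap between the groups (log2 fold change 1.18, SE 0.34, adjusted p = 8.98e-03 by edgeR). This call was lost in 9 of the 12 fits that left out 1 library, and without BAM15 library 5 the log2 fold change was 0.86 (adjusted p = 0.0213 by edgeR). Only the omission of BAM15 1, BAM15 2 or vehicle 2 kept it. Its log2 fold change was 0.62 within numbers 1 to 3 and 1.57 within numbers 4 to 6. Slc2a10 encodes GLUT10 (chromosome 2, 165503787 to 165519917, plus strand) and had 35.6 ± 5.70 and 51.8 ± 13.7 normalized counts, a log2 fold change of 0.54 that was not called (SE 0.18, adjusted p = 0.0212 by edgeR). It was called within numbers 1 to 3 (0.75, adjusted p = 8.30e-03 by edgeR) and not within numbers 4 to 6 (0.26, adjusted p = 0.428 by edgeR), and the difference between these values was not called in the interaction test (adjusted p = 0.369 by edgeR). The sodium-linked transporters and the remaining SLC2 genes of the list, 9 in all, had no row in the table used.

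Slc2a1 and Slc2a6 together made up most of the SLC2 counts. With vehicle, Slc2a1 took 45.8% to 53.2% of them (median 47.9%) and Slc2a6 29.8% to 35.0% (median 32.02%). After BAM15 the share of Slc2a1 spread from 42.6% to 66.0% (median 52.7%), and that of Slc2a6 lay lower, from 16.7% to 28.7% (median 23.3%), outside the vehicle range in every library. Slc2a4 held 0.863% to 3.05% with vehicle and 2.02% to 4.59% with BAM15, and Slc2a9 moved from 0.164% to 0.681% with vehicle to 2.20% to 3.52%. Because shares add up to a fixed sum, the fall of a share can follow from the rise of another gene. All SLC2 genes summed to 77.3 to 91.1 CPM with vehicle and 75.9 to 144 CPM with BAM15. Unlike the other CPM values, these sums were scaled by raw library totals without TMM factors. They are not on the scale of the levels above, and no conclusion is drawn from where the lowest BAM15 sum lies.

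**Figure D4:**
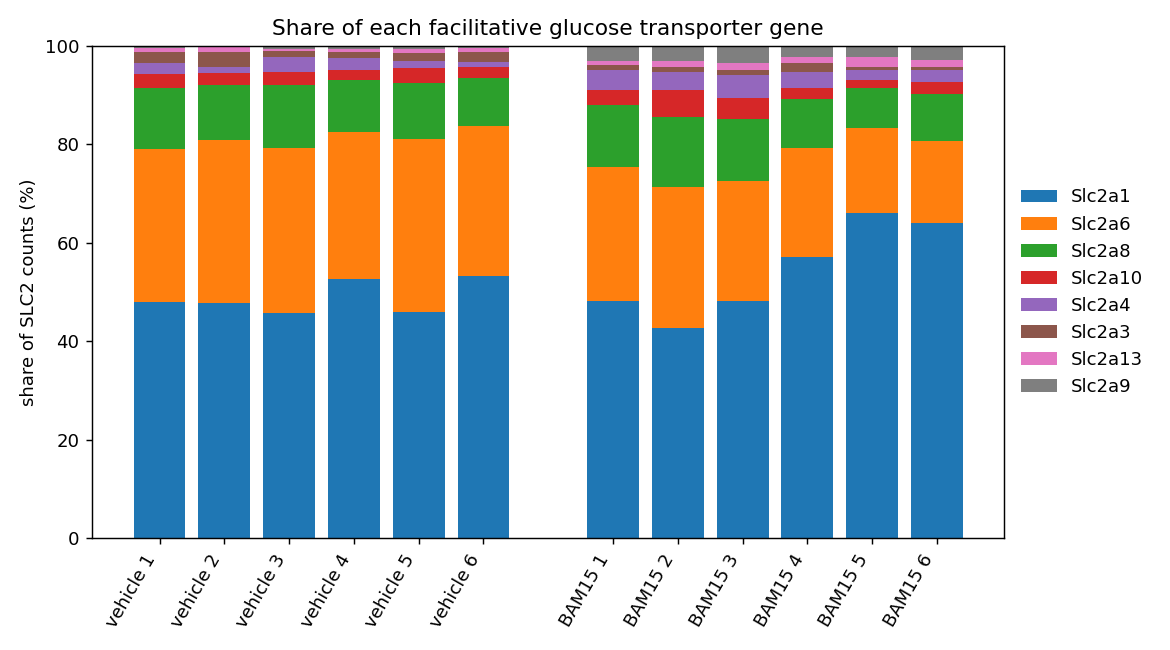
Share of each SLC2 gene in the SLC2 counts of a library (stacked bars, y axis 0 to 100%), for vehicle libraries 1 to 6 and BAM15 libraries 1 to 6. Slc2a1 fills 42.6% to 66.0% of the BAM15 bars, highest in libraries 5 and 6, and Slc2a9 widens from at most 0.681% to at least 2.20%.

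Genes whose log2 CPM ran most closely with a member over the 12 libraries were sought among 11981 genes with a mean of at least 1 CPM. The values share libraries, treatment and depth, and are given as a description. Rpl39 (r = 0.994) and Rps27a (r = 0.989), which encode ribosomal proteins, and Surf2 (r = 0.987) ran most like Slc2a1. Gpr146 (r = 0.959), Kat7 (r = 0.941) and Leng1 (r = 0.934) ran most like Slc2a4. Kif20a (r = 0.992), a kinesin of cell division, Mybph (r = 0.992), a myosin-binding protein, and Gins2 (r = 0.991), a replication factor, ran most like Tbc1d1.

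Markers of the cells in the culture were read beside these results. Of 20 myotube contractile genes, 2 were called higher and 4 lower (30%), beside 42.3% of all tested genes, 22% higher and 20.3% lower. The 20 genes summed to 37548 to 42356 CPM with vehicle and 34756 to 44292 CPM with BAM15. The markers of the labelled cell type were thus abundant in every library. Of 14 genes of undifferentiated or cycling myoblasts, 1 (Myf5) was called higher and 11 lower (85.7%). These 14 genes summed to 605 to 660 CPM with vehicle and 248 to 304 CPM with BAM15. Tbc1d1 was lower in the same libraries, as were the 4 myotube genes called lower, among them Mybph, while 2 myotube genes were higher. The part of either list in the fall of Tbc1d1 was not tested. In RNA from a whole culture, fewer cells of a type and less RNA per cell cannot be told apart. Of 8 adipocyte genes only Pparg and Fabp4 had a row, and they summed to 0.244 to 1.07 CPM with vehicle and 2.81 to 12.3 CPM with BAM15. The other 6, among them Adipoq, Plin1 and Cidec, had no row in the table used, and Fabp4 stayed at or near 0, so the rise in the sum was that of Pparg, at 12.7 ± 5.11 and 82.3 ± 60.9 normalized counts (log2 fold change 2.68, SE 0.44, adjusted p = 1.50e-04 by edgeR).

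The wider route of GLUT4 was read through 7 lists written from general knowledge, which also hold the other SLC2 genes above. Of 106 tested genes, 24 were called higher and 26 lower, 47.2% in all against 42.3% of the table, with a median log2 fold change of 0.06 against 0.02. GLUT4 vesicle cargo and sorting genes were called in 6 of 18 cases, 4 higher and 2 lower (33.3%, median 0.13). Among these, Stx16 (a Golgi SNARE) rose by 0.50 and Vamp2 (the SNARE on GLUT4 vesicles) by 0.31 on the log2 scale, whereas Ap1b1 (an adaptor subunit of sorting at the Golgi) fell by 0.50 and Vamp3 (an endosomal SNARE) by 0.25. Vamp2 went from 595 ± 26.5 to 739 ± 81.2 normalized counts (SE of the log2 fold change 0.07, adjusted p = 2.07e-03 by edgeR).

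Rab GTPases, their exchange factors and activating proteins, and the Ral branch were called in 9 of 22 cases, 5 higher and 4 lower (40.9%, median 0.11). Of all tested genes, 42.3% were called. Dennd4a, an exchange factor for RAB10, rose from 71.4 ± 10.8 to 265 ± 15.0 normalized counts and was the 1 gene of the list past the 3 thresholds (log2 fold change 1.89, SE 0.10, adjusted p = 6.26e-10 by edgeR; chromosome 9, 64811340 to 64919667). Tbc1d15, another Rab GTPase-activating protein, rose by 0.69 on the log2 scale, from 945 ± 41.8 to 1528 ± 96.8. On the Ral side, which ties vesicles to the exocyst, Ralgapa2 fell by 0.81 and Ralb by 0.65.

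Tethering and fusion genes were called in 6 of 17 cases, 3 higher and 3 lower (35.3%, median −0.003), beside 42.3% of all tested genes. Syt7, a calcium sensor of membrane fusion, rose from 11.2 ± 3.80 to 49.6 ± 9.35 normalized counts (log2 fold change 2.13, SE 0.22, adjusted p = 8.00e-07 by edgeR), at a mean too low for the 3 thresholds. Doc2b, another calcium sensor that has been tied to GLUT4 vesicle fusion, rose from 21.9 ± 7.25 to 42.3 ± 7.11. The exocyst subunits Exoc8 and Exoc1 fell by 0.51 and 0.35 on the log2 scale.

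Motors, RAC1 signaling and actin were called in 9 of 14 cases, 2 higher and 7 lower (64.3%, median −0.155), beside 42.3% of all tested genes called in either direction and 20.3% called lower. Of these, 3 passed the 3 thresholds, all lower. Tpm4, a tropomyosin of the non-sarcomeric cytoskeleton, fell from 3549 ± 369 to 1255 ± 98.4 normalized counts (log2 fold change −1.50, SE 0.08, adjusted p = 3.97e-10 by edgeR). Pak1, a kinase that RAC1 activates, fell from 1311 ± 40.6 to 580 ± 58.7, and Tiam1, an exchange factor for RAC1, from 149 ± 12.5 to 69.1 ± 10.0. The motors Kif3a (0.53) and Myo5a (0.44) rose on the log2 scale. However, 40 of the 351 windows of 50 bases at the 3′ end of Kif3a also occur in transcripts of Ccdc36, Dennd4a or Timm22. This leaves the counts of Kif3a less certain, since Dennd4a itself rose by 1.89 on the log2 scale. The summed level of the myoblast markers above was lower in the same libraries, and its part in these changes was not tested.

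Endocytosis and retrieval genes were called in 8 of 17 cases, 3 higher and 5 lower (47.1%, median −0.01), beside 42.3% of all tested genes. Cav1, a caveolin of the plasma membrane, fell from 515 ± 39.7 to 132 ± 31.6 normalized counts and passed the 3 thresholds (log2 fold change −1.96, SE 0.13, adjusted p = 8.68e-09 by edgeR). Cav3, the muscle caveolin, fell from 3986 ± 178 to 2609 ± 460.2. Eea1, a tether of early endosomes, rose from 4366 ± 332 to 7627 ± 1518, and Cltc, the clathrin heavy chain, from 5017 ± 733 to 6517 ± 647, a call that was lost without vehicle library 1 (adjusted p = 0.0101 by edgeR).

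Regulators of Slc2a4 transcription were called in 10 of 15 cases, 5 higher and 5 lower (66.7%, median 0.18), beside 42.3% of all tested genes called in either direction, 22% higher and 20.3% lower. Klf15, a factor known to raise Slc2a4 transcription, had at most 3 reads in any vehicle library and 33 or more in every BAM15 library. Against a floor of 3 reads in each vehicle library, the BAM15 level of 48.7 ± 17.3 normalized counts was at least 15.0-fold higher. Hdac4, a class IIa deacetylase that represses MEF2 factors, rose from 568 ± 59.8 to 1324 ± 161 (log2 fold change 1.219, SE 0.09, adjusted p = 2.68e-08 by edgeR). Slc2a4rg-ps, a pseudogene named after the regulator of Slc2a4, rose from 15.9 ± 6.93 to 45.4 ± 8.90. The counts of 15 genes, 10 called and 5 higher include this pseudogene, which was listed by its name alone. Mef2c, which binds the Slc2a4 promoter in muscle, fell from 29103 ± 1277 to 16951 ± 2452 (log2 fold change −0.78, SE 0.09, adjusted p = 1.96e-06 by edgeR), and Myod1, the myogenic master factor, from 1229 ± 39.2 to 601 ± 63.0 (log2 fold change −1.03, SE 0.07, adjusted p = 6.48e-09 by edgeR).

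**Figure D5:**
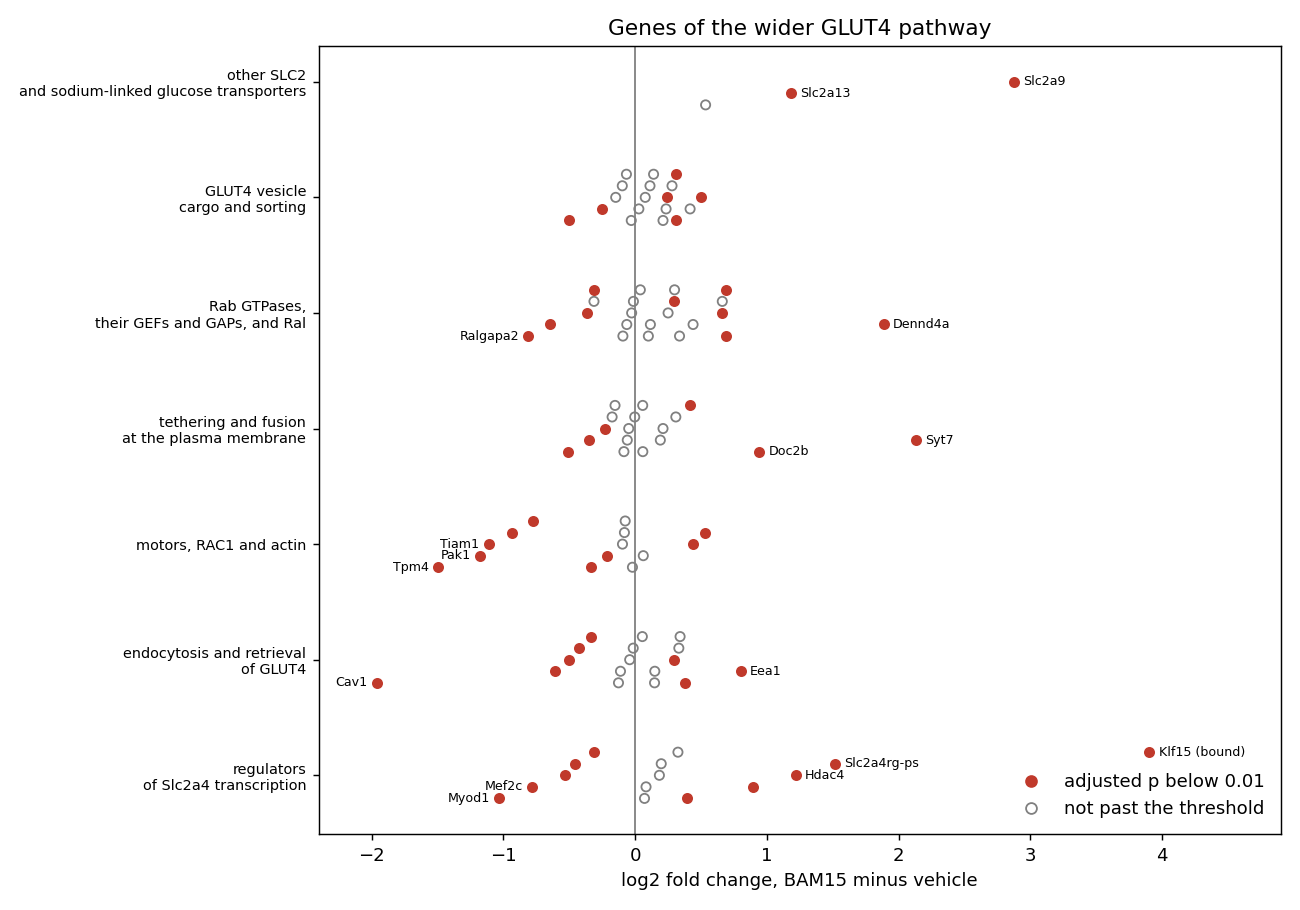
Log2 fold change of BAM15 minus vehicle (x axis) for the 106 tested genes of the 7 pathway lists (rows), filled red where the adjusted p was below 0.01 and open grey where it was not, with Klf15 drawn at its lower bound. Called genes lie on both sides of 0 in every list but the SLC2 list, and of the genes of motors, RAC1 and actin 7 of 14 were called lower, beside 20.3% of all tested genes.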

How the data were processed

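RNA of 6 BAM15 and 6 vehicle libraries of C2C12 myotubes was used. The authors made QuantSeq 3′ libraries, and they deposited raw counts, 1 whole number for each gene and library. A deposited table of normalized signal holds these counts divided by 1 size factor per library and supplied gene symbols only. The submitters' processing notes name DESeq2 1.22.2 and the build GRCm38 (mm10), and the annotation and strand used for counting are not given in the sources used here. Both tables hold 11 columns of other samples that were not used.

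Symbols came from the table for 12820 of 15113 genes and from GENCODE M21 for 2260. In R 4.3.3 with edgeR 4.0.16, filterByExpr by group took out 2383 genes, TMM factors were 0.932 to 1.04, and a robust quasi-likelihood model with condition as its only term was fitted to all 12730 genes with Benjamini-Hochberg adjustment. The SE of a log2 fold change was obtained by dividing it by √F. Alternatives used DESeq2 1.42.0, limma-voom 3.58.1, other scalings, filters and thresholds, blocks, number sets and leaving out each library. The test was checked on simulated data with far fewer changed genes and with changes larger than most seen here. That check does not bear on how reliable the present calls are. Where no library of a group exceeded 3 counts, a gene was taken as undetected there, and counting limits cover counting error only. Motifs and sequence shared between transcripts (windows of 50 bases in the last 400 bases) were searched with Python 3.11.15.

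The 9 genes and all lists were chosen with earlier results of these data known. Named were the 9 genes, every other SLC2 gene in the table, from each list the genes past the 3 thresholds plus the 2 largest changes in each direction among those called, and the 3 genes most correlated with Slc2a1, Slc2a4 and Tbc1d1. Marker genes were named after their values were seen.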

Additional observations from a re-analysis of the deposited data

Results flagged for a closer look

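Among 24 groups examined (12 SLC2 and trafficking genes in each condition), 1 library stood apart from the other 5 of its group by Dixon's criterion at 95%. Slc2a3 had 33.1 normalized counts in BAM15 library 4, against 16.5 in the next highest and 12.2 in the lowest BAM15 library. The gap made up 0.794 of the range, above the critical value for 6 samples. Chance alone flags about 1 in 20 groups. The value rests on 31 reads.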

How the results depend on the processing

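The calls of Slc2a4 and Tbc1d1 held in all 24 alternatives, with the log2 fold change of Slc2a4 between 0.91 and 1.25 and that of Tbc1d1 between −0.76 and −0.65. With a threshold of 0.05 on the adjusted p, 4 of the 9 genes were called (Slc2a6 and Slc2a8 in addition). Of the 3 thresholds, dropping the one on the mean let 1 gene pass (Slc2a4), and asking for 1.5-fold in place of 2-fold let 1 pass (Tbc1d1). The interaction with the number set gave 1 gene, Slc2a1, under DESeq2's Wald test or at an adjusted p below 0.05. The sign of Lnpep, which was never called, turned to 0.028 without BAM15 replicate 5 (−0.16 to 0.028 over the 12 omissions) and to 0.12 within numbers 1 to 3, and the cause was not tested. The median of all genes moved by less than 0.1 on the log2 scale under every scaling. Libraries with the same number correlated in their deviations between −0.083 and 0.381. For numbers 3 and 6 this was above the highest correlation with another number (0.381 against 0.234, and 0.325 against 0.237). For numbers 1, 2, 4 and 5 it was below. These values do not decide whether the numbers pair the libraries. With the replicate block for the library number, 2 of the 9 genes and 51 of the 106 pathway genes were called, against 2 and 50 without it. For the other 3 SLC2 genes, the genes named from the pathway lists and Pparg, to which the same alternatives were applied after seeing the data, no direction turned. Calls were lost within numbers 4 to 6 for Vamp2, Vamp3, Doc2b, Exoc1, Myo5a and Cltc and within numbers 1 to 3 for Slc2a13, with library sizes alone for Vamp2, Cltc and Slc2a13, and with upper-quartile scaling or limma-voom for Slc2a13, while Slc2a10 gained a call within numbers 1 to 3. Depth limits Slc2a3, Slc2a4, Slc2a9, Slc2a10 and Slc2a13, whose counts lay below 100 per library.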
